A study of Mus musculus with 18 samples.

Results

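The expression of 10 genes of the p53 response was followed in 3 hematopoietic progenitor populations of Trim33-deficient and control mice. The genes were taken by symbol, as the rows for Trp53, Mdm2, Cdkn1a, Gadd45a, Ccng1, Trp53inp1, Aen, Phlda3, Zmat3 and Eda2r. All 10 were listed in each of 3 tables of FPKM (read fragments divided by transcript length and by the mapped reads of the library, so a level per length), among 19710 genes for multipotent progenitors (MPPs) and for CD115- common dendritic cell progenitors (CDPs), and among 18378 genes for common lymphoid progenitors (CLPs).

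p53, encoded by Trp53, is a transcription factor that is kept scarce by MDM2, a ubiquitin ligase that marks it for degradation. DNA damage and other stresses stabilize the p53 protein, which then activates genes for cell cycle arrest, DNA repair and apoptosis, and also Mdm2 itself, which closes a feedback loop. In blood-forming cells the pathway is known for restraining stem and progenitor cells after damage, and its activity is set largely at the protein level, which RNA levels do not measure.

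The study asked how loss of TRIM33, a chromatin-binding ubiquitin ligase, alters the progenitors that give rise to dendritic cells. Progenitors were sorted from the bone marrow of C57BL/6 mice aged 6 to 8 weeks, which were Trim33 fl/fl without Cre (WT) or Trim33 fl/fl with Cre-ER T2 (KO), in which tamoxifen activates Cre recombinase and removes exons 2 to 4 of Trim33. By the methods of the study, 2 mg of tamoxifen was injected on 5 consecutive days and the mice were kept for 7 more days, and tamoxifen-treated Trim33 fl/fl mice served as controls. Each genotype was sequenced in 3 libraries per population, numbered 1 to 3, which makes 18 libraries. The WT mice carry no Cre, so Cre activity and the loss of Trim33 cannot be told apart, and the deletion is not restricted to 1 cell type. By the methods of the study, replicates outside its ChIP-qPCR were biological. The labels do not tie libraries to mice, and the p-values measure the spread between these libraries.

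Depth estimated from the smallest FPKM steps was 19200000 to 21200000 reads per library, a narrow range. Genes of the sort gates were read first. Flt3, a receptor shared by these progenitors, lay between 147 and 330 FPKM in all 18 libraries. Kit was highest in MPPs (71.6 to 74.8 FPKM in WT and 29.9 to 49.9 in KO libraries, against 8.08 to 28.4 in the other populations) and Il7r was highest in CLPs (32.6 to 63.0 FPKM, against 1.89 to 20.6). Csf1r, which encodes CD115, went against the label, since it was present in the cells sorted as CD115- CDPs at 9.24 to 137 FPKM and reached its highest values there, against 3.94 to 15.6 FPKM in MPPs and 5.05 to 26.3 in CLPs. The sort was on the surface protein, which RNA does not measure. Trim33 itself (chr3:103279293-103358770, GRCm38) was measured over all its exons, most of which the deletion leaves in place, so its FPKM is a weak check on the genotype. In MPPs it was 10.4, 10.1 and 8.78 FPKM in WT and 9.71, 11.7 and 4.8 in KO libraries. In CDPs it was 14.3, 15.2 and 8.27 against 9.64, 8.28 and 4.03, and in CLPs 12.4, 7.01 and 8.86 against 7.52, 5.60 and 7.66. As groups, the genotypes overlapped in every population. Between libraries with the same number, Trim33 was lower in the KO-labelled library in 3 of 3 pairs in CDPs (ratios of 0.674, 0.544 and 0.487) and in CLPs (0.608, 0.799 and 0.865). A fit with the replicate number as a block called it lower in CDPs (adjusted p = 0.0258). In MPPs the ratios were 0.932, 1.15 and 0.547, with 1 pair going the other way. Since Trim33 did not mark the genotype in every MPP library, the libraries are called KO-labelled below.

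Some libraries stood apart from others of their group. In MPPs, KO-labelled library 3 differed from KO-labelled libraries 1 and 2 in most of the p53 target genes. In CDPs, library 3 of either genotype differed from libraries 1 and 2. In these CDP libraries the summed level of 12 neutrophil markers was 4658 FPKM in WT 3 and 4519 in KO-labelled 3, against 701 to 1115 in the other 4, with Mpo the most abundant marker in all 6. Counts of passing genes in MPPs and CDPs are given below with and without these libraries. No label names a batch.

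The p53 protein binds DNA as a tetramer, at sites made of a pair of 10-base repeats. To show where such repeats lie in the genes described below, the promoters of RefSeq (GRCm38.p6, from 250 bases before to 50 bases after the start of transcription) were searched for the p53 decamer, the consensus 10-base repeat, which is the same on both strands. Of the 10 genes, 8 had a promoter in the table, and 6 of these 8 held at least 1 exact decamer, against 9.55% of the 27025 genes in the table. Phlda3, Eda2r and the second listed promoter of Cdkn1a held none. Trp53inp1 and Zmat3 were not matched. The stretches around the matches are shown for the 6 genes that held one, with the exact decamers in capitals. They lie at chr17:29090886-29090957 on the plus strand (Cdkn1a, with decamers that begin 73 and 51 bases before one of its 2 listed starts), chr11:40755442-40755491 on the minus strand (Ccng1, 185 bases before), chr11:69580264-69580313 on the plus strand (Trp53, 75 bases before), chr10:117710915-117710964 on the minus strand (Mdm2, 186 bases before), chr6:67037418-67037467 on the minus strand (Gadd45a, 40 bases before) and chr7:78895927-78895956 on the plus strand (Aen, 121 bases before one listed start and 10 bases after another).
Cdkn1a: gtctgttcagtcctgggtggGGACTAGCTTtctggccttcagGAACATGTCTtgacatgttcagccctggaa
Ccng1: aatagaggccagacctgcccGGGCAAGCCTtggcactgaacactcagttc
Trp53: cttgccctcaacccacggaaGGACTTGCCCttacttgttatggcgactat
Mdm2: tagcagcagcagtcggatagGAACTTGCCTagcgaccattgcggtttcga
Gadd45a: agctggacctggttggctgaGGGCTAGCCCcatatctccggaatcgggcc
Aen: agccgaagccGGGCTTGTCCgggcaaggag

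In 2 of these promoters a decamer had a neighbouring repeat that completed a site of 20 bases in which 19 of 20 positions matched the consensus. Such a match was found in 0.067% of the 32851 promoters in the table. They are printed with the single differing base in lower case.
Cdkn1a: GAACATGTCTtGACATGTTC
Ccng1: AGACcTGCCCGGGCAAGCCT

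The best stretch of 20 bases matched at 17 positions in Trp53 and in Aen. These matches describe letters in a window and not binding, which was not measured here. Cdkn1a and Ccng1, the genes with the most complete sites, had unlike patterns over the libraries, as the levels below show.

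The 10 genes spanned a wide range of levels. Trp53 was the most abundant in most libraries, with a median of 130 FPKM over the 18 libraries (78.0 to 163). Cdkn1a, which encodes the cyclin-dependent kinase inhibitor p21, had a median of 64.9 FPKM and the widest range of the well-expressed genes, from 30.3 to 253. Mdm2 (median 30.0, range 22.04 to 67.5), Gadd45a (20.7, 12.98 to 28.1), Aen (14.6, 8.60 to 19.7) and Ccng1 (14.3, 9.29 to 19.2) were moderately expressed. Trp53inp1 (7.20, 2.78 to 18.5) and Phlda3 (6.04, 1.60 to 9.77) were lower, while Zmat3 stayed at 0.21 to 1.22 FPKM and Eda2r at 0 to 0.07 FPKM. The other family members were close to absent, since Trp63 and Trp73 did not exceed 0.06 and 0.05 FPKM in any library. Cdkn2a, whose alternative product p19Arf inhibits MDM2, did not exceed 0.17 FPKM.

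**Figure D1:**
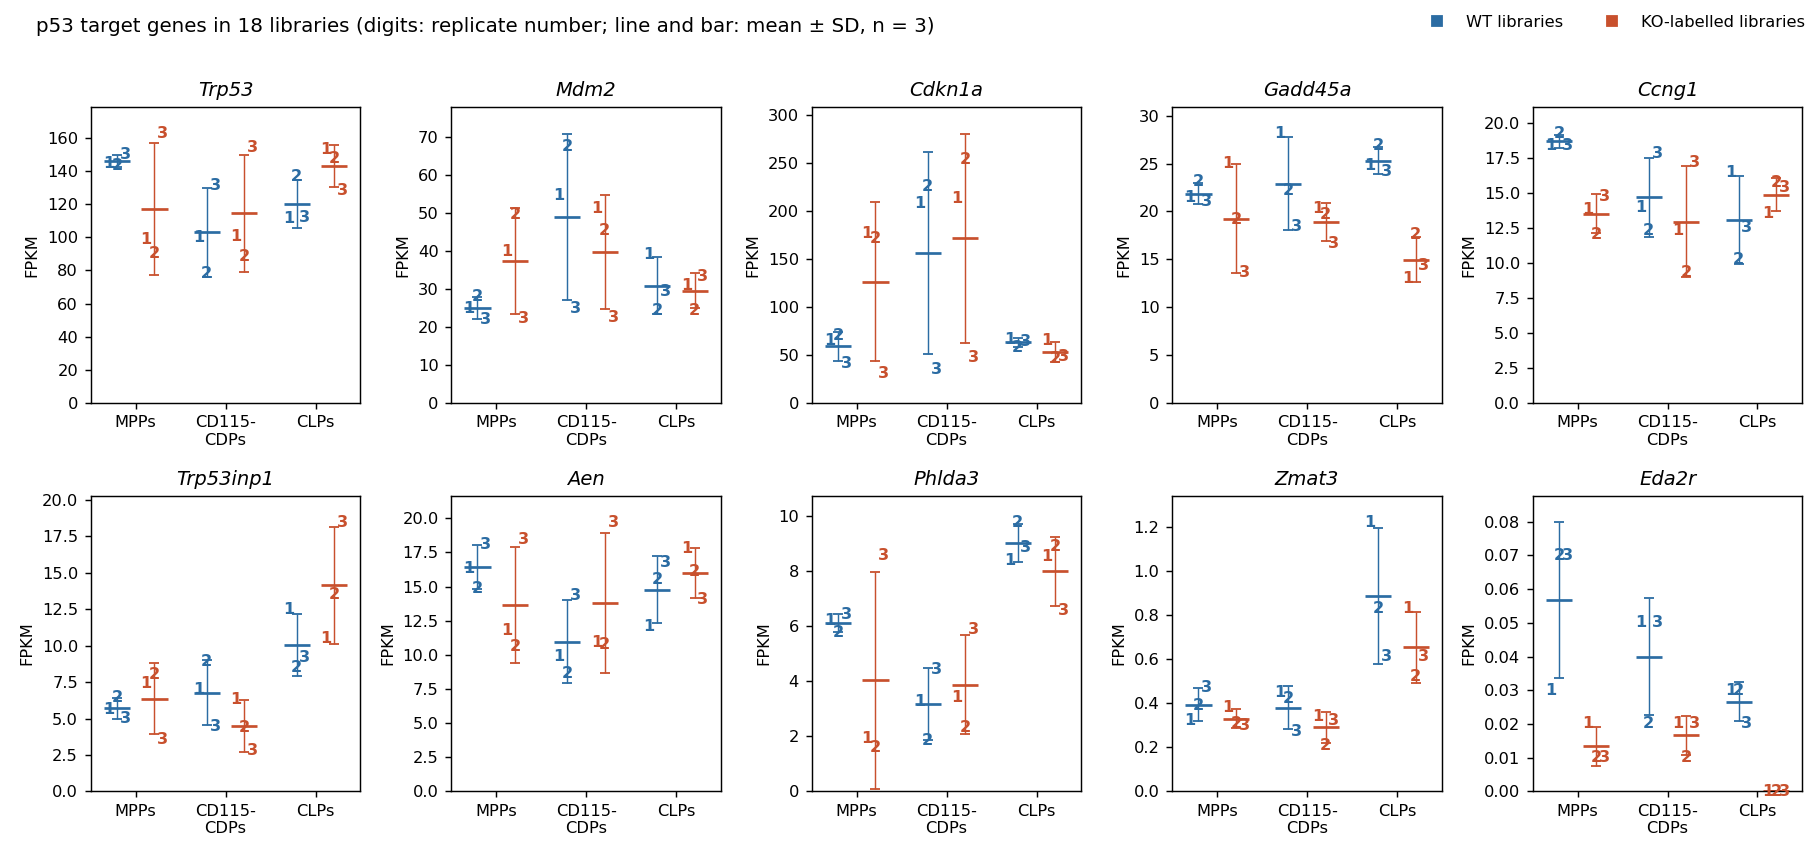
FPKM of the 10 p53 target genes in each library (vertical axes, linear from 0), by population, with WT libraries in blue and KO-labelled libraries in orange; digits are replicate numbers, and the line and bar are the mean and SD of 3 libraries. Cdkn1a exceeded 170 FPKM in KO-labelled MPP libraries 1 and 2 and in CDP libraries 1 and 2 of either genotype, and Gadd45a in CLPs separated WT (24.2 to 26.9) from KO-labelled libraries (12.98 to 17.6).

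The order of the 6 groups by mean level differed from gene to gene, across tables that were deposited separately. Trp53 was highest in WT MPPs (146 ± 3.74 FPKM, SD, n = 3) and lowest in WT CDPs (103 ± 26.9). Only the step from KO-labelled to WT CLPs in that order (143 ± 12.9 to 120 ± 14.7 FPKM) was larger than the SD of both groups. Cdkn1a means were ordered, from the highest, as KO-labelled CDPs (171 ± 109), WT CDPs (156 ± 105), KO-labelled MPPs (126 ± 82.9), WT CLPs (62.6 ± 4.43), WT MPPs (58.5 ± 15.4) and KO-labelled CLPs (52.9 ± 10.6), and no neighbours in this order differed by more than the larger SD. Ccng1 was highest in WT MPPs (18.7 ± 0.482 FPKM), above all the other groups, which lay between 12.9 and 14.9 FPKM. Trp53inp1, a stress-induced protein that promotes p53 activity, was highest in CLPs, at 14.2 ± 4.01 FPKM in KO-labelled and 10.1 ± 2.11 in WT libraries, against 4.50 to 6.76 in the other groups. Phlda3, an inhibitor of AKT signalling, was also highest in CLPs, at 9.01 ± 0.696 FPKM in WT and 8.00 ± 1.26 in KO-labelled libraries.

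The first comparison was of KO-labelled with WT MPPs. A gene was called changed when limma on log2(FPKM + 1) gave it a p, adjusted after Benjamini and Hochberg over the whole table, no higher than 0.05. Genes averaging under 0.5 FPKM were not tested, and all fold changes are on that scale, which understates the change of low genes. Of the 10 p53 target genes, 8 passed the filter in MPPs and 0 of these 8 passed the test, with 1 at an unadjusted p under 0.05 (Ccng1). Over all 12372 genes tested in MPPs, 3.84% passed and 2999 had an unadjusted p of at most 0.05. The fold change was above 0 for 3 genes and below 0 for 5, with a median of -0.25, beside -0.11 over all genes.

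Trp53 (chr11:69580348-69591873) had 145, 144 and 150 FPKM in WT MPPs and 98.6, 90.2 and 163 FPKM in KO-labelled MPPs. The WT libraries were nearly equal, whereas KO-labelled libraries 1 and 2 lay below all of them and library 3 above. The log2 fold change was -0.37 (SE 0.215, adjusted p = 0.314). Mdm2 (chr10:117688875-117710758) showed the opposite arrangement, with 24.9, 27.9 and 22.04 FPKM in WT and 39.8, 49.8 and 22.2 FPKM in KO-labelled MPPs. KO-labelled libraries 1 and 2 exceeded every WT library and library 3 lay among them, and the log2 fold change was 0.49 (SE 0.283, adjusted p = 0.307).

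Among the genes of cell cycle arrest, Cdkn1a (chr17:29090979-29100722) had 64.7, 69.8 and 40.9 FPKM in WT MPPs and 176, 171 and 30.3 FPKM in KO-labelled MPPs. KO-labelled libraries 1 and 2 were more than 2-fold above every WT library and library 3 was the lowest of all 6. The log2 fold change of 0.76 had a 95% interval from -0.83 to 2.36 (SE 0.669, adjusted p = 0.471), wide enough to hold either direction. Ccng1 (chr11:40748552-40755309), which encodes cyclin G1, a regulator of MDM2, had 18.4, 19.2 and 18.4 FPKM in WT and 13.8, 12.01 and 14.7 FPKM in KO-labelled MPPs. It was the only one of the 8 tested genes whose groups did not overlap in MPPs, with every KO-labelled library below every WT library, as for 23.3% of all genes tested. Its log2 fold change was -0.44 (SE 0.112, 95% interval -0.71 to -0.18, adjusted p = 0.0837). Gadd45a (chr6:67035096-67037407), which acts in growth arrest and stress signalling, had 21.5, 23.1 and 21 FPKM in WT and 25.0, 19.1 and 13.6 FPKM in KO-labelled MPPs. The KO-labelled libraries lay on both sides of the WT libraries (log2 fold change -0.22, SE 0.209, adjusted p = 0.513).

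The genes tied to apoptosis and survival signalling separated the KO-labelled MPP libraries in the same way. Phlda3 (chr1:135766085-135769134) had 6.20, 5.77 and 6.41 FPKM in WT and 1.92, 1.60 and 8.57 FPKM in KO-labelled MPPs. KO-labelled libraries 1 and 2 were at about a 3-fold lower level than WT and library 3 was the highest of the 6. The log2 fold change was -0.77 (SE 0.478, adjusted p = 0.334). Aen (chr7:78895927-78911209), a nuclease of the apoptotic response, had 16.4, 14.9 and 18.1 FPKM in WT and 11.8, 10.6 and 18.5 FPKM in KO-labelled MPPs, again with library 3 above and the others below the WT values (log2 fold change -0.29, SE 0.208, adjusted p = 0.395). Trp53inp1 (chr4:11156441-11174379) had 5.64, 6.45 and 5.01 FPKM in WT and 7.43, 8.05 and 3.56 FPKM in KO-labelled MPPs, and its log2 fold change of 0.08 (SE 0.274, adjusted p = 0.870) averaged opposite deviations. Zmat3 (chr3:32334792-32365665), an RNA-binding protein gene, was too low to be tested in MPPs, with 0.32, 0.39 and 0.47 FPKM in WT and 0.38, 0.31 and 0.30 FPKM in KO-labelled libraries.

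Eda2r (chrX:97333837-97377234), which encodes the receptor for ectodysplasin A2, was close to the detection limit and was not tested. It was listed at 0.03, 0.07 and 0.07 FPKM in WT MPPs and at 0.02, 0.01 and 0.01 FPKM in KO-labelled MPPs. In CLPs it was listed at 0.03, 0.03 and 0.02 FPKM in WT and at 0 in all 3 KO-labelled libraries. At the estimated depth 1 read over its longest transcript was worth 0.0105 FPKM, and the limit that a count of 0 allows (3 counts per library, counting error only) was 0.0314 FPKM. The CLP values therefore lay within the limit that a count of 0 allows, and a difference in Eda2r was not detectable at this depth in CLPs.

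Because library 3 decided the spread of most genes in KO-labelled MPPs, the test was repeated without it. Then 7 of the 8 genes passed, with Cdkn1a (log2 fold change 1.59), Mdm2 (0.82) and Trp53inp1 (0.39) higher and Phlda3 (-1.37), Trp53 (-0.63), Aen (-0.51) and Ccng1 (-0.50) lower in the KO-labelled libraries, but 54.0% of all genes tested passed as well. Without library 3 of both genotypes, an alternative chosen after seeing the data, 6 of the 8 passed (all of those named but Trp53inp1), beside 49.0% of all genes. The share of p53 target genes called in MPPs thus depended on 1 library, in a comparison in which the share of all genes called moved with it.

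**Figure D2:**
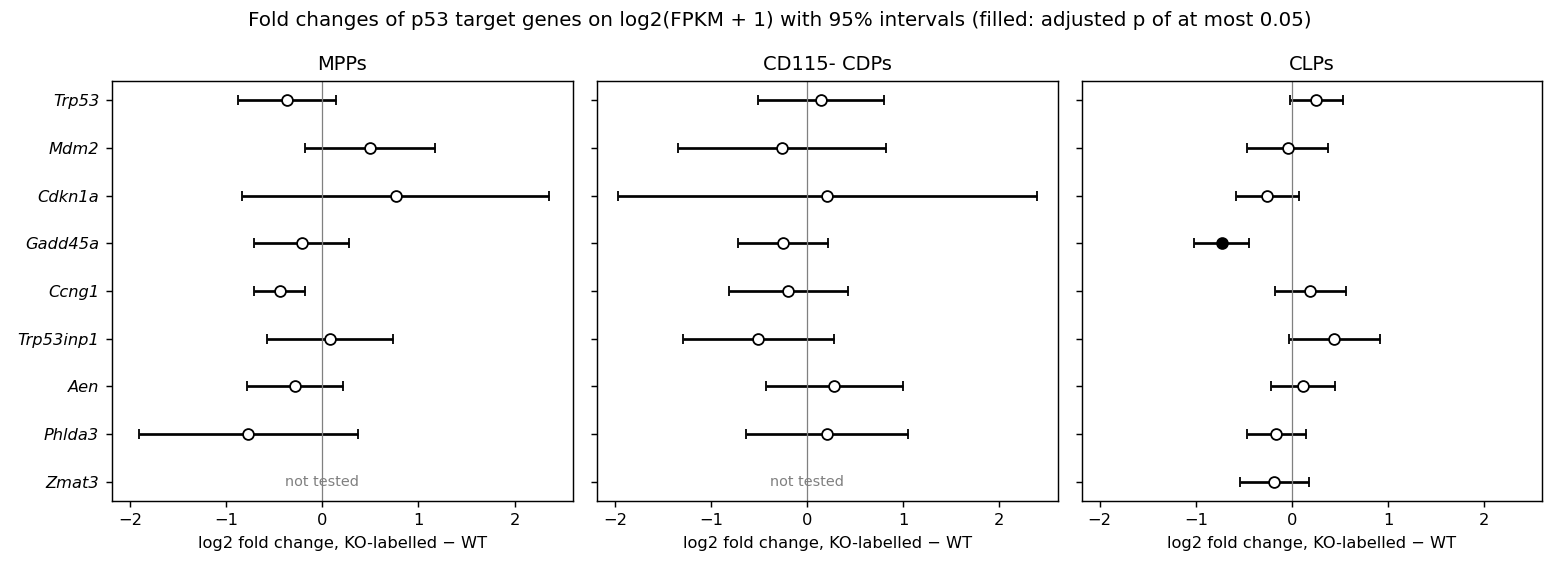
Log2 fold change between KO-labelled and WT libraries on log2(FPKM + 1) (horizontal axis) for 9 of the p53 target genes in each population, with 95% intervals from limma; filled points have an adjusted p of at most 0.05, and Eda2r, under the filter in all populations, is left out. The interval of Cdkn1a ran from -0.83 to 2.36 in MPPs, while Gadd45a in CLPs (-0.73, interval -1.02 to -0.44) was the only gene to pass.

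Markers of other cells and states moved with the genotype in MPPs. The summed level of 17 immediate early genes, which respond within minutes to stimulation and to tissue dissociation, was 13133 to 14620 FPKM in WT and 5703 to 6899 FPKM in KO-labelled MPPs, and 9 of the 17 passed as lower. Fos was the most abundant of these in WT MPPs. The sum of 14 erythroid markers was 559 to 587 FPKM in WT and 139 to 194 FPKM in KO-labelled MPPs, with 12 of 14 lower and Car2 the most abundant. Of 12 neutrophil markers, 5 of 12 were lower. Of the monocyte and macrophage markers 5 of 7 were lower. Genes of the sort gate moved too, with 3 of 6 lower, namely Kit (log2 fold change -0.94, adjusted p = 0.0434), Ly6a, which encodes Sca-1 (-0.73, adjusted p = 0.0425), and Csf1r (-1.59, adjusted p = 0.00253). Of the other lists, 2 of 8 dendritic cell, 2 of 4 megakaryocyte, 1 of 9 B cell and 1 of 6 T and NK cell markers were lower. Over all genes in MPPs 3.52% were lower. Without KO-labelled library 3, where 54.0% of all genes passed, 13 of 17 immediate early genes, 13 of 14 erythroid, 9 of 12 neutrophil, 6 of 7 monocyte and macrophage and 8 of 9 B cell markers and 6 of 6 gate genes were lower. In that fit 3 of the 17 immediate early genes were higher. Of 8 dendritic cell markers 1 was higher and 3 lower, of 6 T and NK cell markers 1 was higher and 1 lower, and 4 of 4 megakaryocyte markers were lower. No marker of these lists was at 0 in all MPP libraries. Their part in the values of the p53 target genes was not tested, and in sorted bulk samples fewer cells of a type and less RNA per cell cannot be told apart.

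The same comparison in CD115- CDPs gave no changed p53 target gene. Of the 8 genes tested (Zmat3 and Eda2r were under the filter), 0 passed in limma and 0 had an unadjusted p under 0.05. Of all 12229 genes 0.106% passed and 1288 genes had an unadjusted p of at most 0.05. The fold change was above 0 for 4 and below 0 for 4, with a median of -0.03, beside -0.07 over all genes. In none of the 8 did the genotypes separate without overlap, against 18.2% of all genes tested. Same-numbered CDP libraries of the genotypes deviated together, but so did unlike numbers among libraries 1 and 2. The deviations of WT 2 had an r of 0.66 with KO-labelled 1 and of 0.67 with KO-labelled 2. With the replicate number as a block 9.34% of all genes passed in limma but still 0 of the 8. Aen (adjusted p = 0.154) and Trp53inp1 (adjusted p = 0.104) had an unadjusted p under 0.05 in that fit, where 3747 of 12229 genes had one of at most 0.05. Each of the 8 genes had the same sign in all 3 same-numbered pairs, as did 54.1% of all genes, with Trp53, Cdkn1a, Aen and Phlda3 higher and Mdm2, Ccng1, Gadd45a and Trp53inp1 lower in the KO-labelled library of each pair. This tally was added after seeing the data.

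In CDPs several genes differed more between library 3 and libraries 1 and 2 than between the genotypes. Cdkn1a had 208, 226 and 34.8 FPKM in WT and 212, 253 and 47.1 FPKM in KO-labelled CDPs. Library 3 was the lowest of either genotype by a factor of more than 4, and the genotypes overlapped (log2 fold change 0.21, SE 0.909). With the block the SE of the same fold change was 0.105 (adjusted p = 0.229). Mdm2 had 54.7, 67.5 and 24.7 FPKM in WT and 51.1, 45.5 and 22.5 FPKM in KO-labelled CDPs, also lowest in library 3 of each genotype. Trp53 had 99.7, 78.0 and 131 FPKM in WT and 101, 88.4 and 155 FPKM in KO-labelled CDPs, and was highest in library 3. The log2 fold changes were -0.26 for Mdm2 (adjusted p = 0.895) and 0.14 for Trp53 (adjusted p = 0.905).

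The remaining genes followed one or the other arrangement in CDPs. Phlda3 had 3.27, 1.84 and 4.43 FPKM in WT and 3.43, 2.34 and 5.87 FPKM in KO-labelled CDPs. Aen had 9.90, 8.60 and 14.4 FPKM in WT and 10.9, 10.8 and 19.7 FPKM in KO-labelled CDPs. Ccng1 had 13.9, 12.3 and 17.8 FPKM in WT and 12.3, 9.29 and 17.2 FPKM in KO-labelled CDPs. Like Trp53, these 3 genes were highest in library 3 of each genotype, and in each of them the genotypes overlapped. Trp53inp1 had 6.97, 8.89 and 4.43 FPKM in WT and 6.32, 4.4 and 2.78 FPKM in KO-labelled CDPs, with the lowest value of each genotype in library 3 (log2 fold change -0.51, SE 0.328, adjusted p = 0.642). Gadd45a had 28.1, 22.2 and 18.4 FPKM in WT and 20.3, 19.7 and 16.7 FPKM in KO-labelled CDPs, an overlapping pair of groups (log2 fold change -0.25, SE 0.196, adjusted p = 0.716). Without library 3 of both genotypes, again chosen after seeing the data, 0 of the 8 genes passed, where 2.25% of all genes did.

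**Figure D3:**
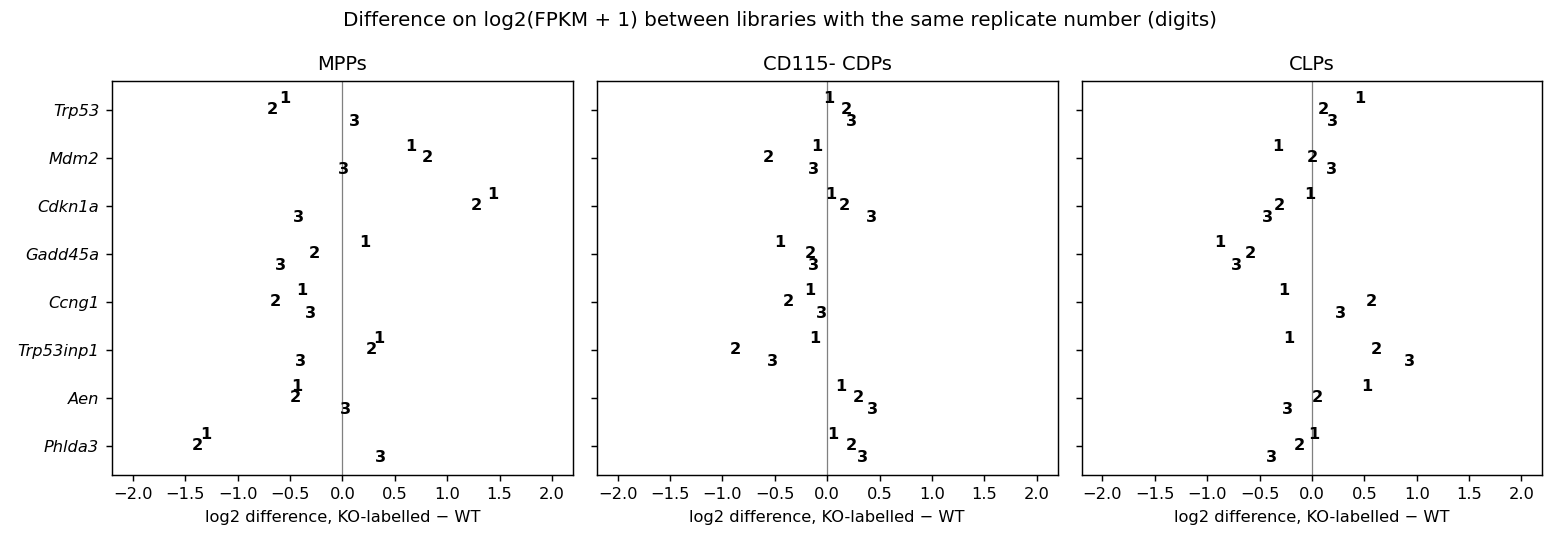
Difference on log2(FPKM + 1) between the KO-labelled and the WT library with the same replicate number (horizontal axis; digits are replicate numbers, set apart vertically) for 8 p53 target genes in each population. In MPPs, pair 3 lay apart from pairs 1 and 2 for Cdkn1a (-0.42 against 1.43 and 1.28) and Phlda3 (0.37 against -1.30 and -1.38), whereas all 3 pairs of Gadd45a in CLPs lay below 0.

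In CLPs, Gadd45a was lower in KO-labelled libraries and was the only p53 target gene to pass. It had 24.8, 26.9 and 24.2 FPKM in WT and 12.98, 17.6 and 14.3 FPKM in KO-labelled CLPs. Every KO-labelled library lay below every WT library, the only such separation among the 9 genes tested, as for 18.6% of all genes tested, with means of 25.3 ± 1.42 and 14.96 ± 2.38 FPKM (SD, n = 3). Gadd45a fell by 0.73 on the log2 scale (SE 0.126, 95% interval -1.02 to -0.44, limma adjusted p = 0.00637). Its adjusted p ranged from 0.00228, with the replicate block, to 0.0349 over the alternatives tried. Over all 12339 genes, 14.3% passed and 8.92% passed as lower, so that 1 of 9 is near the background. Of the 9 genes, 3 had the same sign in all 3 same-numbered pairs (Trp53 higher, Cdkn1a and Gadd45a lower), where 53.9% of all genes did. The median fold change of the 9 genes was -0.05, beside 0.01 over all genes.

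None of the other 8 genes tested in CLPs passed. Trp53 had 111, 137 and 112 FPKM in WT and 153, 148 and 129 FPKM in KO-labelled CLPs, which overlapped at 1 WT library (log2 fold change 0.25, SE 0.120, adjusted p = 0.200). Cdkn1a had 66.2, 57.7 and 64.1 FPKM in WT and 65.1, 46.1 and 47.5 FPKM in KO-labelled CLPs (log2 fold change -0.25, 95% interval -0.58 to 0.07, adjusted p = 0.276). No CLP library approached the Cdkn1a levels of CDP libraries 1 and 2. Mdm2 had 39.0, 24.3 and 29.2 FPKM in WT and 30.9, 24.4 and 33.3 FPKM in KO-labelled CLPs (log2 fold change -0.05, 95% interval -0.46 to 0.37, adjusted p = 0.898). Trp53inp1 had 12.5, 8.48 and 9.22 FPKM in WT and 10.5, 13.5 and 18.5 FPKM in KO-labelled CLPs, with the WT library 1 value inside the KO-labelled range (log2 fold change 0.44, SE 0.207, adjusted p = 0.200). Ccng1 (0.19), Aen (0.11), Phlda3 (-0.16) and Zmat3 (-0.18) had log2 fold changes with adjusted p between 0.469 and 0.656, and all overlapped between the genotypes. Dendritic cell markers were lower in KO-labelled CLPs, with 8 of 8 tested passing and a summed level of 1835 to 2057 FPKM in WT against 269 to 308 FPKM in KO-labelled libraries, and Irf8 the most abundant. Other markers moved in the same libraries. Erythroid markers were lower in 4 of 8 (summed level of 56.4 to 77.1 FPKM in WT and 28.5 to 42.8 in KO-labelled CLPs), monocyte and macrophage markers in 2 of 5, and T and NK cell markers in 2 of 6 with 1 higher, while B cell markers were higher in 3 of 9 (292 to 800 FPKM against 278 to 581), with a median log2 fold change of -0.21 over the 9 and, with the block, 3 higher and 2 lower. Of the gate genes, Kit and Cd34 were higher and Csf1r lower. Of 12 neutrophil markers 0 passed in limma, but 9 were lower with the block (434 to 1067 FPKM in WT and 245 to 428 in KO-labelled CLPs). With the block, 6 of the 8 erythroid markers were lower and 1 higher. Of 17 immediate early genes 0 passed in limma, and with the block 2 were higher and 2 lower. No gene of these lists was at 0 in all CLP libraries, and their part in the Gadd45a difference and in the cell cycle genes below was not tested.

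Whether the genotype effect differed between the populations was tested with an interaction term in 1 fit to the 18 libraries. None of the 8 genes tested in all populations passed in limma (0 adjusted, 0 at an unadjusted p under 0.05), where 193 of 11668 genes did (1.65%). With the replicate block 0 of the 8 passed and 5 had an unadjusted p under 0.05 (Ccng1, Gadd45a, Mdm2, Trp53 and Trp53inp1), with adjusted p from 0.0937 up, where 7.97% of all genes passed. Without KO-labelled MPP library 3, 0 of the 8 passed and 4 had an unadjusted p under 0.05, with adjusted p from 0.0513 up, where 4.21% of all genes passed. Without library 3 of either CDP genotype, left out singly, 0 passed and 1 had an unadjusted p under 0.05. Of all genes 3.26% passed without WT CDP library 3 and 2.17% without KO-labelled CDP library 3. The share of all genes at an unadjusted p under 0.05 was not counted for the interaction. For Gadd45a the effect in CLPs was 0.51 lower on the log2 scale than in MPPs (SE 0.266), and its adjusted p was 0.467. A change in CLPs that differs from that in the other populations was therefore not shown for Gadd45a (adjusted p = 0.147 with the block). For Cdkn1a the differences were the least precise, at -1.02 (SE 1.06) between CLPs and MPPs (adjusted p = 0.803).

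Over the 18 libraries the p53 target genes fell into opposed patterns that crossed the genotypes. The 6 highest Cdkn1a values, 171 to 253 FPKM, were those of KO-labelled MPP libraries 1 and 2 and of CDP libraries 1 and 2 of both genotypes, and the other 12 libraries had 30.3 to 69.8 FPKM. The same 6 libraries held the 6 highest Mdm2 values (39.8 to 67.5 FPKM, against 22.04 to 39.0) and the 6 lowest of Trp53 (78.0 to 101, against 111 to 163), Phlda3 (1.60 to 3.43, against 4.43 to 9.77) and Aen (8.60 to 11.8, against 12.04 to 19.7). Among all 11668 genes tested in every population, these libraries held the 6 highest values of 6.16% and the 6 lowest values of 10.5%. Ccng1, Gadd45a and Trp53inp1 did not follow the division, and their ranges in the 6 and the 12 libraries overlapped.

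Of the 17 immediate early genes, 2 had their 6 highest values in these libraries, beside 6.16% of all genes, 2 had their 6 lowest, beside 10.5%, and 13 overlapped. The counts are close to the background, and the genes are named after their values were seen. Fos was at 162 to 415 FPKM in the 6 libraries and at 864 to 2721 in the other 12, and Dusp1 was at 65.2 to 142 FPKM against 184 to 907. Nr4a1 was at 1528 to 1928 FPKM against 69.7 to 875, and Atf3 at 296 to 490 FPKM against 56.4 to 285. Egr1, Jun and Ier2 were among those that overlapped. Whether the state or handling of the cells had a part in the p53 target genes was not tested, and the labels give no sort or library date.

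**Figure D4:**
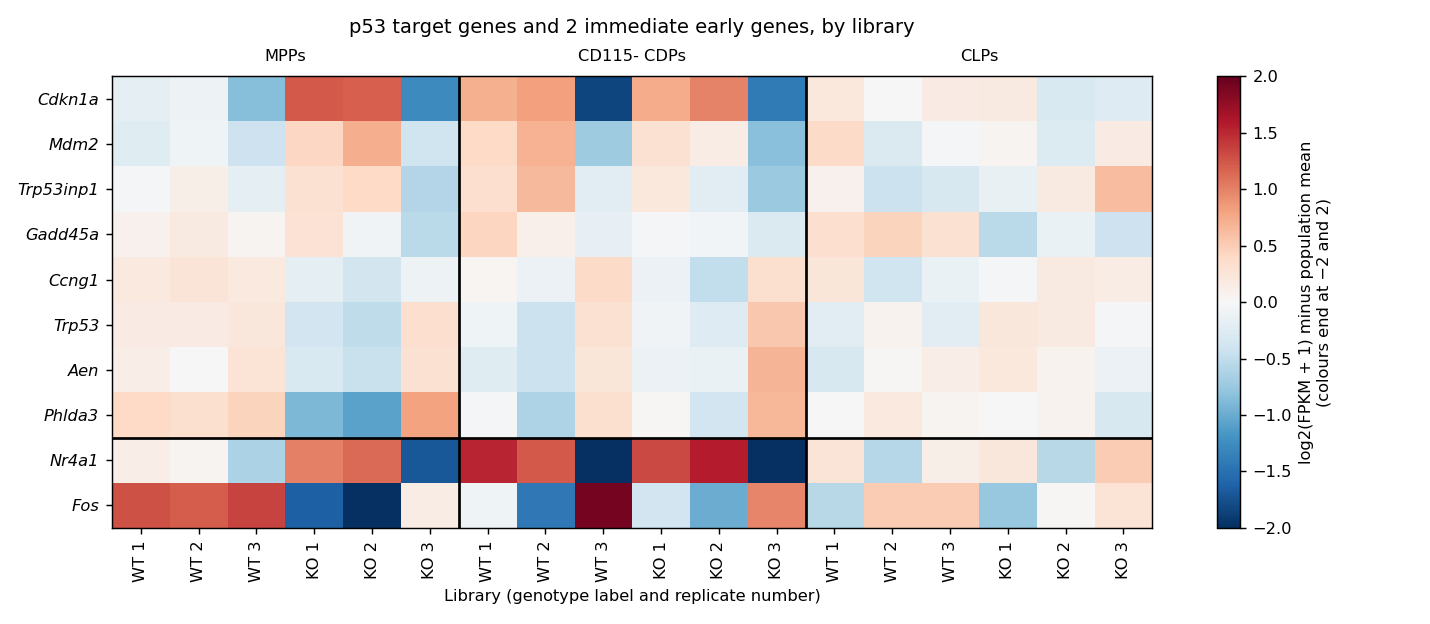
Level of 8 p53 target genes and of the immediate early genes Nr4a1 and Fos in each library (columns), as log2(FPKM + 1) minus the mean of the population; colours end at -2 and 2. Cdkn1a, Mdm2 and Nr4a1 were high in KO-labelled MPP libraries 1 and 2 and in CDP libraries 1 and 2 of both genotypes. Trp53, Aen, Phlda3 and Fos were low there, except Phlda3 in KO-labelled CDP library 1 (3.43 FPKM), slightly above the population mean. No such division was seen in CLPs.

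As a description, with each library's log2(FPKM + 1) centred on its population, Cdkn1a and Mdm2 had a Pearson r of 0.90 and Trp53 and Aen an r of 0.91, whereas Trp53 and Mdm2 had an r of -0.90 and Mdm2 and Aen an r of -0.93. The 18 points share libraries, genotypes and scaling and are not independent. The genes whose pattern was most like that of Cdkn1a among 11668 were Zfp212 (r = 0.985), Spata2 (0.981) and 4930413G21Rik (0.979). Those most like Ccng1 were Arhgef6 (0.957), Sacm1l (0.947) and Kifap3 (0.943). Cdkn1a and Ccng1 themselves had an r of -0.67.

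Beyond the 10 genes, lists of p53 regulators and of other p53 targets were read in the same fits. In MPPs, 2 of 14 other targets tied to growth arrest were lower (as were 3.52% of all genes). Of 11 regulators, 12 apoptosis targets, 9 repair targets and 20 genes of S phase and mitosis, 0 passed in limma. At an unadjusted limma p under 0.05 these lists held 1, 2, 3 and 0 genes, beside 2999 of all 12372 genes tested. Over the 5 lists 2 of the 66 tested genes passed (3.03%), near the 3.84% of all genes. Btg2, an antiproliferative gene and also an immediate early gene, fell from 221, 211 and 198 FPKM in WT to 58.1, 50.1 and 43.3 FPKM in KO-labelled MPPs (log2 fold change -2.04, SE 0.120, adjusted p = 0.00182). Gdf15, which encodes a secreted stress cytokine, fell from 10.6, 10.5 and 9.36 FPKM to 2.79, 2.17 and 3.20 FPKM (log2 fold change -1.59, SE 0.147, adjusted p = 0.00449). In both genes all 3 KO-labelled libraries, library 3 included, lay below all WT libraries, unlike in Cdkn1a, and without library 3 the log2 fold changes were -1.94 for Btg2 and -1.68 for Gdf15. Without that library, where 54.0% of all genes passed, 4 of 14 arrest targets were higher and 8 lower, 3 of 11 regulators higher and 6 lower, 6 of 12 apoptosis targets higher and 4 lower, 2 of 9 repair targets higher and 6 lower, and 11 of 20 genes of S phase and mitosis lower. In CDPs 0 of the 65 tested genes of the 5 lists passed in limma, and 3 had an unadjusted p under 0.05, beside 1288 of all 12229 genes tested. With the replicate block in CDPs 7 of the 65 passed (10.8%), near the 9.34% of all genes. The regulator Ep300 was lower, the arrest target Plk2 was higher, the apoptosis targets Siva1 and Bbc3 were higher and Apaf1 lower, and the proliferation genes Top2a and Mki67 were lower. Without library 3 of both genotypes only Plk2 of these lists passed, where 2.25% of all genes did.

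Markers moved with the genotype in the same CDP fit with the block. Of 9 dendritic cell markers 7 were lower, among them Irf8, a transcription factor of dendritic cell development (log2 fold change -1.75, adjusted p = 0.00780), and Siglech, a surface receptor of plasmacytoid dendritic cells (-2.90, adjusted p = 0.00262). The summed level of these markers was 915, 566 and 1205 FPKM in WT and 241, 253 and 426 FPKM in KO-labelled CDPs, so that the genotypes did not overlap. Of 7 monocyte and macrophage markers 3 were lower, Csf1r among them, with a summed level of 123.3, 112 and 1108 FPKM in WT against 108, 95.2 and 202 FPKM. Of 7 T and NK cell markers 2 were higher and 1 lower, of 7 erythroid markers 1 higher and 1 lower, of 4 megakaryocyte markers 1 higher and of 17 immediate early genes 2 higher, while 0 of 12 neutrophil and 0 of 9 B cell markers passed in limma (0 and 2 at an unadjusted p under 0.05). Over all genes in that fit, 3747 of 12229 had an unadjusted p of at most 0.05. Of 6 gate genes 2 were lower, Csf1r and Il7r. Without the block 1 dendritic cell marker (Itgax) and no other gene of these lists passed, and without library 3 of both genotypes 8 of 9 dendritic cell markers were lower. No marker was at 0 in all CDP libraries, and their part in the p53 lists was not tested.

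In CLPs 7 of the 43 tested genes of the 4 other p53 lists passed (16.3%), near the 14.3% of all genes, in both directions. With the replicate block 12 of the 43 passed (27.9%), where 20.9% of all genes did. Of 13 arrest targets, 2 rose and 2 fell, where 5.41% of all genes rose and 8.92% fell. With the replicate block 3 rose and 4 fell, where 20.9% of all genes passed in either direction. Sesn1, a sestrin that restrains growth signalling under stress, rose from 28.2, 22.8 and 22.6 FPKM in WT to 43.1, 44.7 and 47.1 FPKM in KO-labelled CLPs (log2 fold change 0.85, adjusted p = 0.00158). Its relative Sesn2 fell from 5.18, 5.29 and 4.46 FPKM to 3.38, 2.99 and 3.11 FPKM (log2 fold change -0.52, adjusted p = 0.0218), so that members of 1 family went opposite ways. Abhd4 rose (0.36, adjusted p = 0.0461), and Gtse1, a microtubule-binding protein that restrains p53 and is made in S and G2 phases, fell (-0.71, adjusted p = 0.00852). Among the repair targets, 1 of 9 rose, the damage sensor Xpc (0.39, adjusted p = 0.0390), and 1 fell, the translesion polymerase Polh (-0.47, adjusted p = 0.0411). Of 11 regulators, Chek1, a checkpoint kinase, rose (0.39, adjusted p = 0.0442), and of 10 apoptosis targets 0 passed in limma (3 at an unadjusted p under 0.05, and 1, lower, with the block). Without the block, 3655 of all 12339 genes tested in CLPs had an unadjusted limma p of at most 0.05.

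Of the 20 genes of S phase and mitosis, 10 fell and 0 rose in KO-labelled CLPs, beside 8.92% of all genes that fell. The median log2 fold change of the 20 was -0.40. Birc5, an inhibitor of apoptosis that acts in mitosis, fell most (-0.83, adjusted p = 0.00884), from 83.1, 106 and 130 FPKM in WT to 58.1, 60.6 and 56.2 FPKM in KO-labelled CLPs. The mitotic kinase gene Plk1 (-0.72), the cyclins Ccnb2 (-0.71) and Ccna2 (-0.60) and Cdc20 (-0.64), an activator of the anaphase-promoting complex, also fell. Some other genes of mitosis on the list did not pass. Of the genes of the list that act in S phase, Rrm2, a subunit of ribonucleotide reductase (-0.55, adjusted p = 0.0120), the cyclin Ccne1 (-0.57, adjusted p = 0.0183) and E2f1 (-0.41, adjusted p = 0.0289) fell. Others did not pass (limma adjusted p between 0.132 and 0.997). Their log2 fold changes were -0.15 for Pcna, -0.17 for Mcm5, -0.06 for Mcm3, 0.0014 for Mcm2, 0.25 for Mcm6 and 0.09 for Ccne2. These S phase genes are named after their values were seen. Of the 20 genes, 1 (Mcm6) had every KO-labelled library above every WT library, and its test did not pass. For 10 of the 20 every KO-labelled library lay below every WT library, beside 18.6% of all genes. The share of all genes that separated as higher is not given here. Cdkn1a, whose product inhibits cyclin-dependent kinases, had a log2 fold change of -0.25 in the same libraries.

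**Figure D5:**
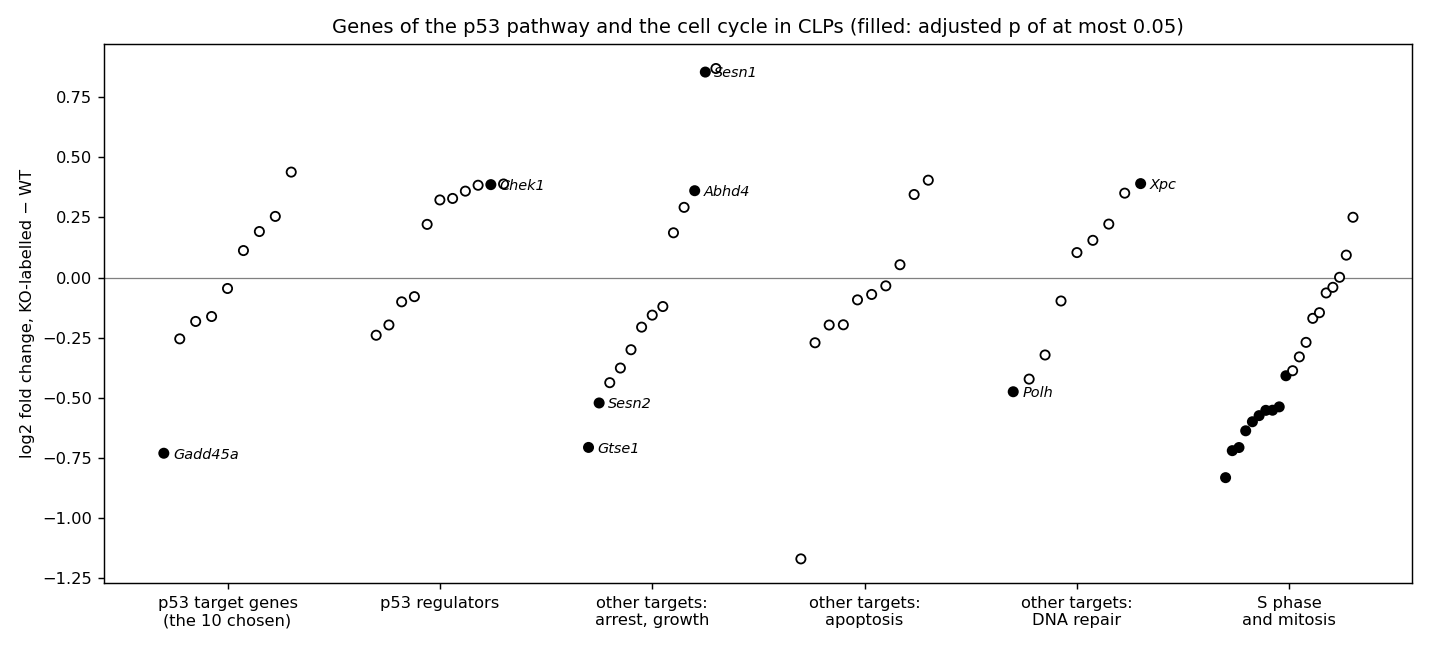
Log2 fold change between KO-labelled and WT CLPs on log2(FPKM + 1) (vertical axis) for each tested gene of the p53 target genes, 4 other p53 lists and the S phase and mitosis list (horizontal axis); filled points have an adjusted p of at most 0.05. Gadd45a (-0.73) was the only filled point of the first group, the arrest and repair lists held filled points on both sides of 0, and the 10 filled points of the last group all lay below 0.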

How the data were processed

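RNA was measured by mRNA sequencing of sorted mouse bone marrow progenitors on the BGISEQ-500 (single-end reads of 50 bases). The authors filtered reads with SOAPnuke 1.5.2, mapped them with HISAT2 2.0.4 (mm10) and, for expression, with Bowtie2 2.2.5, and computed the deposited FPKM values per gene with RSEM 1.2.12. RSEM shares reads that fit several transcripts, so values of genes with near-identical copies are uncertain. Whole reads were not recovered from the values, which carry 2 decimals, so a count test was not run. The columns of the authors' own comparisons (fold changes and q-values) were not used.

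Each table was analysed on its own. Genes averaging 0.5 FPKM or more in the 6 libraries of a table were tested with limma 3.58.1 (R 4.3.3, eBayes with trend, two-sided) on log2(FPKM + 1), KO-labelled against WT, with Benjamini-Hochberg adjustment over all genes tested and a threshold of 0.05, and the interaction of population and genotype with an F test over the 18 libraries. The script was tested on simulated data. The number of libraries, 3 per group, limits the precision, and depth was estimated from the steps between low FPKM values. Groups came from the sample labels. Same-numbered libraries of the genotypes deviated together in CDPs (r = 0.44, 0.67 and 0.79 of the deviations from the group means) and CLPs (0.40, 0.33 and 0.13), and were taken as paired there from this check alone, since the labels state no pairing. In CDPs unlike numbers among libraries 1 and 2 correlated nearly as well (r = 0.38 for WT 1 with KO-labelled 2 and 0.66 for WT 2 with KO-labelled 1). The check there set library 3 apart from libraries 1 and 2, and hardly told pair 1 from pair 2.

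The 10 genes, the gene lists and the marker lists were chosen with earlier results of these data known, so they give no independent support. Named were all 10 genes and Trim33, the genes of the p53 and cell cycle lists that passed in a population (at most 5 per list, by size of fold change), the most abundant markers, and the 3 genes most like Cdkn1a and Ccng1. Outside this rule, genes of the sort gates, further markers, further S phase genes and some p53 regulators too low to test were also named. Promoters came from RefSeq (GRCm38.p6). Alternatives were another pseudocount, filter, scaling, variance model and fold rule, 1 fit over 18 libraries, the replicate block, and leaving out libraries.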

Additional observations from a re-analysis of the deposited data

How the results depend on the processing

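Over 28 fold changes and 435 alternatives, 401 kept their direction and their side of the threshold, 14 passed only under the alternative, 0 lost a call and 20 reversed. The count of p53 target genes that passed was 0 in MPPs in the main fit, 0 to 7 when 1 library was left out (7 without KO-labelled library 3) and 6 without library 3 of both genotypes, an alternative chosen after seeing the data. It was 0 in CDPs throughout, and 1 in CLPs except under a minimum log2 fold change of 1, which gave 0, since Gadd45a lay below it. Gadd45a in CLPs kept its call without each library in turn (-0.85 to -0.64). The cause of these changes was not tested.

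Reversed were only fold changes that had not passed. Mdm2 in CLPs was 0.0039 under quantile normalization, and Trim33 in MPPs was 0.0473 without library 3 of both genotypes. With 1 library left out, log2 fold changes in MPPs ran from -0.11 to 0.39 for Trp53inp1, from -0.42 to 0.00090 for Gadd45a and from -0.45 to 0.12 for Trim33. In CDPs they ran from -0.094 to 0.33 for Trp53, from -0.66 to 0.97 for Cdkn1a, from -0.68 to 0.094 for Mdm2, from -0.41 to 0.0040 for Ccng1 and from -0.070 to 0.45 for Phlda3, and in CLPs from -0.20 to 0.13 for Mdm2 and from -0.019 to 0.20 for Aen.

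The replicate block changed no call of the 10 genes, and left 0 passing in MPPs, 0 in CDPs, 1 in CLPs and 0 in the interaction, while Trim33 in CDPs passed with it (-0.74, adjusted p = 0.0258). In MPPs the libraries share only a number (r = 0.04, 0.48 and 0.47, with 1 pair under 0.1), and 297 of all genes passed with the block. A WT library correlated best with its own number in 2 of 3 cases in MPPs and also in CLPs, where WT 3 was closer to KO-labelled 2 (r = 0.23) than to KO-labelled 3 (0.13). In the interaction 930 of all genes passed with the block, against 193 without.

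Counts over all genes moved more. In MPPs 475 passed, against 134 with a mean of at least 5 FPKM, 250 after quantile normalization, 143 in 1 fit over 18 libraries and 63 to 6679 with 1 library left out. In CDPs 13 passed, against 1142 with the replicate block, 3 without the filter, 559 in 1 fit over 18 libraries and 0 to 10 with 1 library left out, and in CLPs 1768, against 912 in 1 fit over 18 libraries and 954 to 2489. The split in MPPs was 436 lower and 39 higher, but 341 and 74 after median ratio scaling and 194 and 56 after quantile normalization. Median ratio scaling moved the median fold change of all genes in MPPs from -0.11 to -0.01. Rescaling to TPM moved that in CDPs from -0.07 to -0.19. Of the p53 target genes in these populations, only Trp53inp1 in MPPs (0.08) had a fold change smaller than the shift.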
